A study of Mus musculus with 2 samples.

Results

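Mir132 and Mir212 are neighbouring microRNA genes of mouse chromosome 11, and both were followed here in developing forebrain. They were taken by Ensembl identifier from the gene tables, through the GENCODE mouse annotation, and were found as 2 rows of the 1973 genes with counts. They were picked by identifier and not by a threshold on the measured values, although earlier results of these data were known. The tissue was forebrain of B6NCrl embryos at day 12.5 of gestation, with males and females pooled, described as healthy and with no treatment or genetic change in the labels. The series had 1 group with 2 biological replicates, where replicate 1 pooled 120 embryos and replicate 2 pooled 68 embryos. Each pool gave 1 library of RNA under 30 nt, so differences between embryos within a pool could not be seen, and differences between pools cannot be told apart from differences in preparation.

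MicroRNAs (miRNAs) are short RNAs that pair with messenger RNAs, mainly through a short stretch near their 5′ end called the seed, and lower their output. In neurons, synaptic activity and neurotrophins act through the transcription factor CREB to raise transcription of the miR-212/132 locus, and miR-132 in turn promotes growth of neurites and dendritic spines, in part by lowering the GTPase regulator p250GAP. At embryonic day 12.5 most forebrain cells are dividing progenitors and the earliest neurons are leaving the cell cycle, so the levels below belong to a stage before most neurons mature. No other age or tissue was part of the design, and a change over time was therefore not tested.

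The mature sequences are shown because the 3p products of both genes share a seed, whereas the 5p products do not. They were taken from RefSeq (GRCm38.p6), where both genes matched, and capitals mark the seed, bases 2 to 8 from the 5′ end.
miR-132-3p: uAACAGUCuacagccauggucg
miR-212-3p: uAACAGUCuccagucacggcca
miR-132-5p: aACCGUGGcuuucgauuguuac
miR-212-5p: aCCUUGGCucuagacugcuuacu

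The 3p arms had the same letter at 17 of 22 positions, including the leading 9, and differed by A10C, C14U, U17C, U20C and G22A, counted from the 5′ end with the miR-132-3p base first. The 5p arms were alike at only 9 of 22 positions and had different seeds. Among 1738 mature mouse sequences in the RefSeq table, no further gene carried the seed AACAGUC, and neither 5p seed occurred in another gene. None of the 4 mature sequences was found on either strand in a transcript of another gene among the 141767 transcripts of GENCODE M21. The longest stretch shared with another annotated hairpin was 11 bases for Mir132 and 12 for Mir212, and 10 bases were shared between the pair. Reads of 1 gene could thus be told from reads of the other where they spanned the differing positions. Copies elsewhere in the genome sequence were not searched for.

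The precursors are shown next to place these arms, with the 5p and 3p mature miRNAs in capitals.
Mir212 hairpin: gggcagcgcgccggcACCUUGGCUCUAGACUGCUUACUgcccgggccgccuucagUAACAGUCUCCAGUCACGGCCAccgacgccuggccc
Mir132 hairpin: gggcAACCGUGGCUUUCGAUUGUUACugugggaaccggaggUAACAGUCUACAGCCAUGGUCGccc

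Mir212 (ENSMUSG00000065590.1) lies on the plus strand at chr11:75173388-75173478 of mm10, and Mir132 (ENSMUSG00000065537.1) follows 203 bases downstream at chr11:75173682-75173747. For Mir132 the counted version of the gene is older than the M21 version from which this position was taken. Both hairpins fell in intron 1, of 1380 bases, of the non-coding transcript 1700016P03Rik, with Mir212 790 bases after exon 1 and Mir132 230 bases before exon 2. No other annotated miRNA gene lay within 100 kb, where the remaining genes were Smg6, Hic1, Ovca2, Dph1 and Rtn4rl1. The Mir212 hairpin was longer, at 91 against 66 bases, and richer in G and C, at 69.2% against 57.6%, where the median of 1005 RefSeq hairpins was 51.7%. Only 2.99% of those hairpins had a higher G and C content than Mir212, against 25.3% for Mir132. By predicted folding with ViennaRNA the order was the other way round per base. Mir132 had a minimum free energy of -0.564 kcal/mol per base and Mir212 of -0.456, with a median of -0.406 over the 1005 hairpins.

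**Figure D1:**
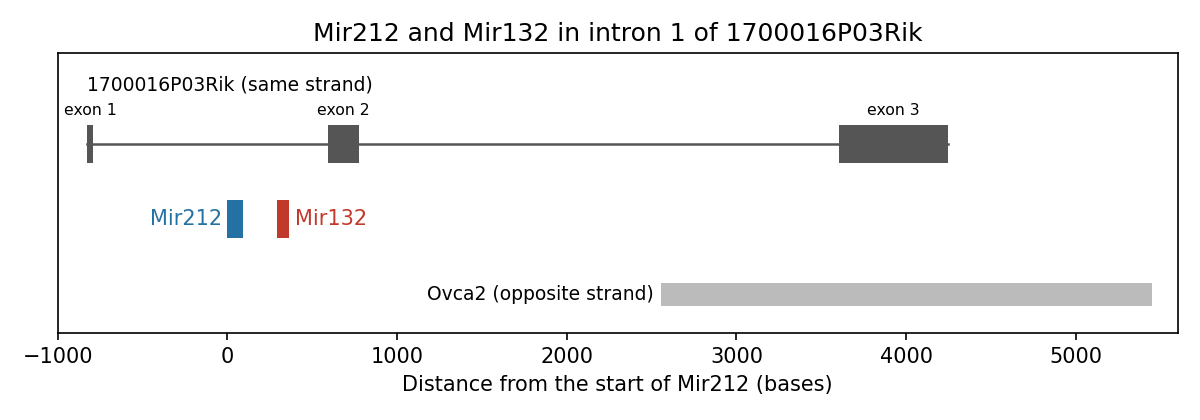
Annotated features around the pair, with distance from the start of Mir212 in bases on the horizontal axis. Grey boxes and the line are exons and introns of 1700016P03Rik, coloured boxes are the hairpins, and the light bar is Ovca2 on the opposite strand; Mir212 and Mir132 sit in intron 1, 203 bases apart.

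Levels were read from the deposited gene-strand counts as counts per 1000000 reads assigned to miRNA genes on their own strand (CPM). The libraries held 4333194 and 4397107 such reads, so that a gene without reads could have had up to 0.692 and 0.682 CPM (3 counts). Reads matching several places, 37.9% of all reads in each library, stood outside the gene counts. These floors, like the intervals given with single libraries, describe counting error alone, since no molecular identifiers are given that would mark PCR copies.

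Mir132 was read at a moderate level in both pools. It had 865 reads in replicate 1, or 199.6 CPM (95% exact Clopper-Pearson interval 186.5 to 213.4), and 743 reads in replicate 2, or 169.0 CPM (157.0 to 181.6). The mean was 184.3 ± 21.7 CPM (SD, n = 2), or 0.0184% of assigned reads. Replicate 1 was the higher, and the counting intervals of the pools did not overlap. Mir132 took place 188 in replicate 1 and place 200 in replicate 2 among 1973 genes, of which 763 had any read. It was among the 229 genes whose mean reached 100 CPM and not among the 101 that reached 1000 CPM, and the most abundant gene stood 685-fold above it.

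Mir212 was detected in both pools at a level about an order of magnitude lower. It had 82 reads in replicate 1, or 18.9 CPM (95% exact interval 15.1 to 23.5), and 94 reads in replicate 2, or 21.4 CPM (17.3 to 26.2). The mean was 20.2 ± 1.74 CPM (SD, n = 2), well over the floor. Here replicate 2 was the higher, and the counting intervals overlapped. It took place 290 in each library and was among the 321 genes with at least 10 CPM. The strand opposite to the hairpins was nearly empty, with 1 read at each gene in replicate 1 and 0 at each in replicate 2, below the 3 counts that a count of 0 allows.

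The pair was therefore read mostly from Mir132. Of the 947 reads of both genes in replicate 1, 91.3% were Mir132 (95% exact interval 89.4% to 93.1%), and of the 837 reads in replicate 2, 88.8% (86.4% to 90.8%). The mean share was 90.1% ± 1.82 (SD, n = 2). As a ratio, Mir132 had 10.5 reads for each Mir212 read in replicate 1 (8.40 to 13.4) and 7.90 in replicate 2 (6.37 to 9.90). The share did not differ between the libraries at a threshold of 0.05 (two-sided Fisher's exact test on reads, p = 0.0799), with a ratio of the ratios of 1.33. A read of a mature miRNA covers it whole, and the 3p arms were both 22 bases long, so reads were not divided by hairpin length. Divided in that way, the ratio of the genes was 14.5 and 10.9. Counts were given per hairpin, so the 5p and 3p arms could not be separated and the share of reads that carry AACAGUC is unknown. Summed over both genes, the pools gave 218.5 and 190.4 CPM, or 204.4 ± 19.9 CPM (SD, n = 2).

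By assigned reads, a gap of this size was common among neighbouring miRNA genes. The pair differed by 3.13 in mean log2(CPM + 1), against a median of 2.73 over 126 other same-strand neighbouring pairs at most 10 kb apart, where each gene had 10 reads or more over both libraries. A larger difference was found in 57 of these pairs and a smaller one in 69. Close to the pair in this order stood Mir302c and Mir302a, which come from 1 cluster of early embryonic cells, with 95.1 and 822.0 CPM and a difference of 3.10, and Mir144 and Mir451a, an erythroid pair, with 30.1 and 248.0 CPM. On the other side were Mir23b and Mir27b with a difference of 3.24. These pairs were named after their values were seen. Pairs of 1 cluster share genes, so the order is a description of the libraries. Some genes of the other pairs, such as Mir302a and Mir29b-1, share a stretch of at least 20 bases with another hairpin. Reads matching several places were left out, so the levels of such genes can be too low. The gap of their pairs can then be too wide or too narrow. The place of Mir132 and Mir212 among pairs without such genes was not examined.

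**Figure D2:**
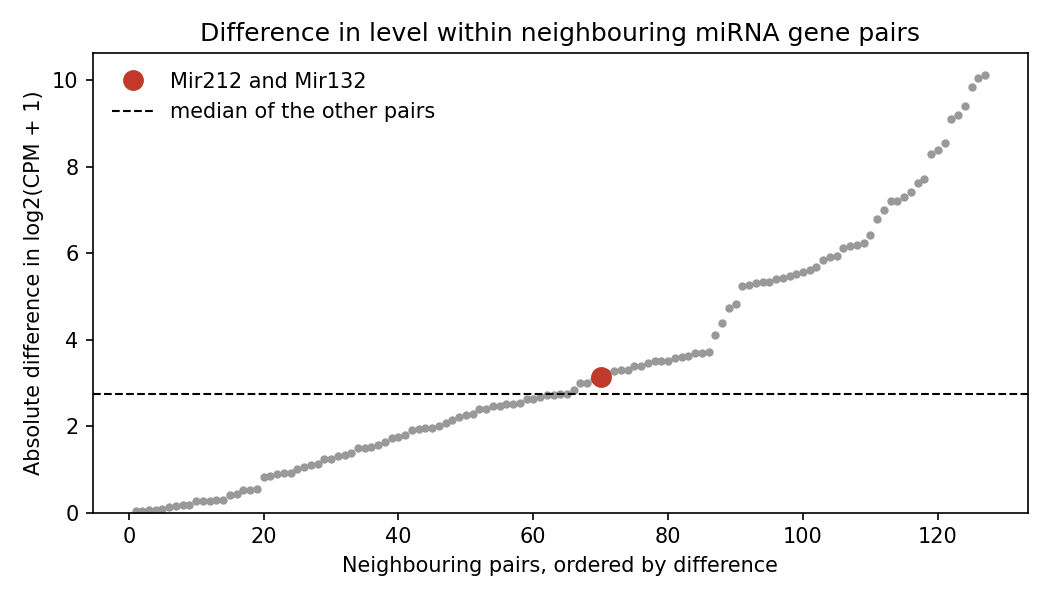
Absolute difference in mean log2(CPM + 1) for each of the 127 neighbouring pairs, ordered from smallest to largest along the horizontal axis. Each grey point is a pair, the dashed line is the median of the other pairs (2.73), and the red point is Mir212 with Mir132 at 3.13, slightly above it.

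The pools were then compared gene by gene, which sets 2 libraries against each other and not 2 conditions. Mir132 was lower in replicate 2, with a log2 ratio of CPM + 1 of -0.24, and passed the test over all 511 genes with at least 10 reads (two-sided Fisher's exact test, p = 0.000904, Benjamini-Hochberg adjusted p = 0.0035). Such a pass was frequent, since 32.7% of the tested genes passed at 0.05 and 12.5% did so in the same direction. With a 2-fold minimum added, 2.74% of genes were called, and Mir132 was not among them. Its coefficient of variation over the pools was 11.8%, counting error included. The common biological coefficient of variation that edgeR estimated over 403 genes was 16.6%. That estimate leaves counting error out, so the 2 values are not like measures. Of 77 other genes within 2-fold of the level of Mir132, 20 differed more between the pools, so Mir132 differed more than most. The median absolute log2 ratio of the 77 was 0.12.

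For Mir212 the pools could not be told apart at this depth. Its log2 ratio was 0.17 (two-sided Fisher's exact test, adjusted p = 0.628), and its coefficient of variation was 8.61%. Of 59 other genes within 2-fold of its level, 42 differed more, and their median absolute log2 ratio was 0.27. The log2 ratios of the pair had opposite signs, and the test of the difference between them is the one on the share of Mir132 reads given above, which missed the threshold.

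**Figure D3:**
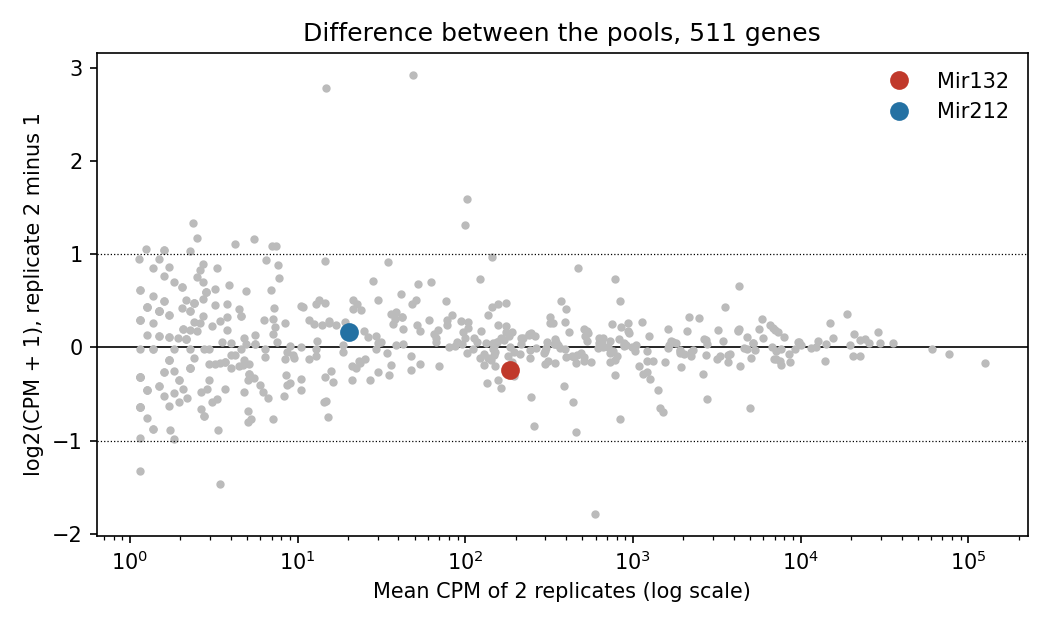
Difference in log2(CPM + 1) between replicate 2 and replicate 1 against mean CPM (log scale) for the 511 tested genes. Grey points are genes, dotted lines mark 2-fold, and the coloured points are Mir132 at -0.24 and Mir212 at 0.17, both inside the 2-fold lines.

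Levels of miRNAs that mark other cell types also differed between the pools. Mir126a, which marks endothelial cells, measured 16564 CPM in the pool of 120 embryos and 21180 CPM in the pool of 68. The 7 mesenchymal and mural miRNAs summed to 13294 and 16134 CPM, and 6 of the 7 passed the same test as higher in replicate 2, as did 20.2% of all 511 tested genes. Their median log2 ratio was 0.47, against 0.04 over all 511 genes. Among the 6, Mir143 lies near Mir145a and Mir214 near Mir199a-2 on the same strand, so they are not 6 separate loci. Of these 7 genes, 3 share a stretch of at least 20 bases with another hairpin, so their levels are uncertain. The 3 leukocyte genes with counts summed to 372.7 and 452.1 CPM, with Mir223 higher in replicate 2, and the 3 erythroid genes to 326.8 and 250.8 CPM, with Mir451a lower and Mir144 higher. None of these genes was at 0 in both libraries. Larger shifts were present outside these lists and are named after their values were seen. The epithelial miR-200 genes Mir200a, Mir141 and Mir429 were lower in replicate 2, with log2 ratios of -1.79, -0.84 and -0.65. The epithelial genes Mir205 and Mir203 went the other way, with log2 ratios of 0.50 and 0.33. Mir211 had 46 reads in replicate 1 against 384 in replicate 2, and the muscle gene Mir206 had 13 against 117. The muscle genes Mir1b and Mir208b did not rise with Mir206, at 35 against 23 reads and 83 against 81. A shift of epithelium or muscle as a whole was therefore not shown. In bulk tissue, fewer cells of a type and less RNA per cell cannot be told apart. The part of these shifts in the lower Mir132 level of replicate 2 was not tested.

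The forebrain label was set beside neural markers. Mir92b of cortical progenitors stood at 19420 and 19820 CPM, Mir137 at 5127 and 5286 CPM, and Mir9-3 at 713.1 and 713.9 CPM. The other 3 neural markers with counts lay below Mir212, with means of 5.61 CPM for Mir9-2, 2.18 CPM for Mir124a-3 and 1.95 CPM for Mir124a-1. Of these 6 markers 4, Mir9-3 included, share a stretch of at least 20 bases with another hairpin, so their levels are uncertain. The 5 Hox-cluster miRNAs, typical of hindbrain and spinal cord, summed to 178.6 and 168.7 CPM, led by Mir10a at 70.0 CPM, Mir10b at 65.4 CPM and Mir196b at 35.3 CPM. These 3 lay below Mir132 and above Mir212, and the other 2, Mir196a-2 at 2.75 CPM and Mir196a-1 at 0.229 CPM, lay below both.

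By assigned reads, Mir132 lay in the middle of the list of miRNAs linked to neuronal maturation. Of 20 genes of that list, 9 had a higher mean than Mir132, 5 lay between the members of the pair and 6 lay below Mir212. The list was led by Mir137, Mir153 at 2777 ± 745.1 CPM and Mir7b at 1260 ± 205.2 CPM (SD, n = 2), and its median was 159.7 CPM. The 511 tested genes had a median of 47.2 CPM. Close to Mir132 came Mir29c, of a family that accumulates as brain matures, at 190.3 ± 15.1 CPM, and Mir128-2 at 169.5 ± 6.99 CPM. The Mir124a genes, whose miRNA is the most typical of neurons, stood at 6.29, 2.18 and 1.95 CPM. A stretch of at least 20 bases was shared with another hairpin in 16 of these 20 genes, Mir29c, Mir128-2 and the Mir124a genes included. Reads matching several places were left out, so the levels of these genes are uncertain and can be too low. For Mir132 and Mir212 no such stretch was found. An order between the pair and this list therefore holds for assigned reads only. Of the listed genes without such a stretch, Mir137, Mir153 and Mir7b lay above Mir132, and Mir29a lay below it at 149.9 CPM. By Fisher's exact test 4 of the 20 passed as higher in replicate 2 and 3 as lower, which is near the 20.2% and 12.5% of all 511 tested genes.

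Most other miRNAs linked to neuronal activity were more abundant than Mir132. Of 12 genes in that list, 10 had a higher mean than Mir132, 1 lay between Mir132 and Mir212 and 1 lay below, and the list's median was 1521 CPM. Most of the 10 share a locus with others of the list, in the imprinted Dlk1-Dio3 region or the miR-183 cluster. They are therefore not 10 separate loci. It was led by Mir379 at 3703 ± 140.1 CPM and Mir381 at 3153 ± 197.6 CPM (SD, n = 2), both of the imprinted Dlk1-Dio3 region, and by Mir182, of the sensory miR-183 cluster, at 2625 ± 359.4 CPM. Mir134, which lies in the same imprinted region and limits the size of dendritic spines, reached 1624 ± 5.80 CPM. Mir184 was the lowest at 2.63 ± 1.43 CPM. By Fisher's exact test 1 gene of the 12 passed as higher in replicate 2 and 6 passed as lower, against 20.2% and 12.5% of all 511 tested genes. The 6 were Mir379, Mir381 and Mir485 of the Dlk1-Dio3 region and Mir182, Mir183 and Mir96 of the miR-183 cluster, so they are not separate loci. At the read numbers of this list small shifts pass, as for Mir379 with a log2 ratio of -0.08. The median log2 ratio of the list was -0.04. Many of these miRNAs have other roles too, and neuronal activity was not measured.

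Of 15 proliferation-linked miRNA genes, 11 had a higher mean than Mir132, 3 lay between the members of the pair and 1, Mir367, lay below Mir212, with a median of 1084 CPM. A stretch of at least 20 bases was shared with another hairpin in 4 of the 15, so their levels are uncertain. Mir19b-1, which lay between the members of the pair at 34.4 CPM, is among these 4. The leading gene, Mir17 of the miR-17~92 cluster, stood at 60649 ± 594.7 CPM (SD, n = 2), or 329-fold above Mir132. Mir20a of the same cluster followed at 24125 ± 1104 CPM and Mir93, of the related cluster in Mcm7, at 22647 ± 992.3 CPM. By Fisher's exact test 7 of the 14 tested genes passed as higher in replicate 2 and 4 as lower, against 20.2% and 12.5% of all 511 genes. At such read numbers small shifts pass, as for Mir17 with a log2 ratio of -0.02. Most of the 15 genes share a locus with others of the list, in the miR-17~92, Mcm7 or miR-302 cluster. The counts by level and by test are therefore not counts of separate loci.

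**Figure D4:**
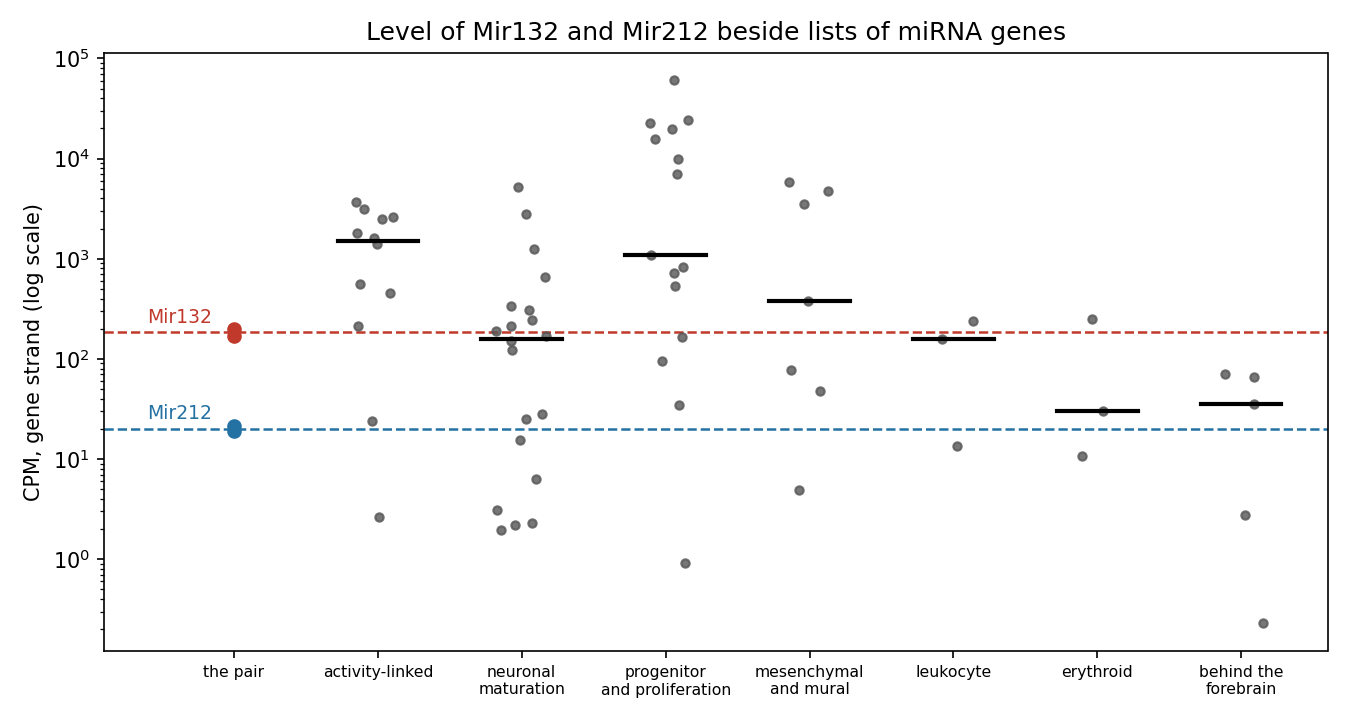
Levels in CPM (log scale) of Mir132 and Mir212 in each replicate (coloured points, at left) beside the mean CPM of every gene in 7 lists (grey points), with list medians as black bars. Dashed lines carry the mean of Mir132 (184.3 CPM) and Mir212 (20.2 CPM) across. By assigned reads, Mir132 lies near the median of the neuronal maturation list (159.7 CPM). It lies below the medians of the activity-linked and proliferation lists (1521 and 1084 CPM). In the neuronal maturation list, 16 of 20 genes share a stretch of at least 20 bases with another hairpin, so their levels can be too low.

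The genes nearest in level, by mean CPM over the 2 libraries, are given as a description. Above Mir132 stood Mir412 at 184.5 ± 0.519 CPM, Mir29c, and Mir410 at 190.7 ± 15.5 CPM, and below it stood Mir135a-2 at 183.1 ± 10.9 CPM, Mir673 at 180.8 ± 7.70 CPM and Mir362 at 175.7 ± 40.6 CPM (SD, n = 2). These 6 genes differed from Mir132 by less than its SD over the pools, so the order among them is not fixed. Mir412, Mir410 and Mir673 lie on chromosome 12 in the imprinted Dlk1-Dio3 region. Mir135a-2 shares a long stretch with its copy, and its level is uncertain.

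Around Mir212 the levels were as close. Above it stood Mir504, in an intron of Fgf13, at 21.1 ± 2.16 CPM, Mir3058 at 21.1 ± 3.78 CPM and Mir5113 at 21.2 ± 2.21 CPM. Below it stood Mir7655 at 19.2 ± 2.72 CPM, Mir208b, hosted by the heart and slow muscle myosin gene Myh7, at 18.8 ± 0.518 CPM, and Mir3081 at 18.7 ± 0.293 CPM (SD, n = 2). All 6 lay within 1 SD of Mir212.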

How the data were processed

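MicroRNA sequencing of 2 pooled forebrain libraries was analysed. The authors made gene counts from mm10 alignments and annotation M4, according to notes deposited beside them. Aligner, counter and trimming were not given in the sources used here. The deposited counts are raw, in 3 columns read from the values as both strands, gene strand and opposite strand. The 4 rows naming no gene held 17.5% and 16.8% of reads as unmapped, 37.9% in each as matching several places and 5.49% and 5.93% as in no feature, and were left out. Symbols and positions came from GENCODE M21 (1894 of 1973 genes matched) and sequences from RefSeq (GRCm38.p6). A single group allows no quasi-likelihood contrast. Libraries were compared by Fisher's exact test over 511 genes, with Benjamini-Hochberg adjustment and, where stated, a 2-fold minimum. Only this comparison was tried on simulated counts, which held counting error and no spread between libraries. Log ratios used log2(CPM + 1). Dispersion came from edgeR 4.0.16 in R 4.3.3, and DESeq2 1.42.0 gave size factors as an alternative, with Python 3.11.15, SciPy 1.17.1 and ViennaRNA 2.7.2. Named genes were the pair, the 3 genes above and below each in level, up to 3 leading genes per list, any gene sharing a seed and any miRNA gene within 100 kb. Further genes (such as Mir134, Mir184, Mir128-2, Mir367, Mir9-2, Mir124a and miR-200 genes, Mir211, Mir206 and neighbouring pairs) were chosen after their values were seen. The members and lists were chosen with earlier results of these data known. Fisher's p-values treat reads as independent and hold counting error only, not the spread between libraries.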

Additional observations from a re-analysis of the deposited data

How the results depend on the processing

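Only 2 libraries stand behind each value, and at 82 and 94 reads of Mir212 small differences could not be seen. The level of Mir132 was 87.3 CPM and that of Mir212 9.54 CPM with all mapped reads as the denominator, and 211.1 and 23.1 CPM with the most abundant gene taken out of it, as the changed denominators set. Without replicate 1 or 2 in turn, Mir132 ranged from 169.0 to 199.6 CPM, Mir212 from 18.9 to 21.4 CPM, the share of Mir132 from 88.8% to 91.3%, the difference within the pair from 2.93 to 3.33 (log2), and the percentage of other pairs with a larger difference from 42.9% to 46.8%. The share was 92.6% when reads were divided by hairpin length, a setting added after seeing the data. The difference within the pair was 2.68 with a pseudocount of 10. With no minimum of reads, which adds pairs of genes without reads, 24.9% of other pairs differed more, in place of 45.2%. Genes called between the pools with a 2-fold minimum numbered 14, and 9 both with no minimum of reads and with at least 50 reads. The log2 ratio of Mir132 between the pools stayed negative and past the threshold (Fisher's exact test, adjusted p from 0.000388 to 0.0135), and that of Mir212 positive and not past it, under the both-strand column, TMM and DESeq2 scaling, both other denominators and both other minimums. No paired analysis was possible because the series has a single group.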
